A study of Homo sapiens with 6 samples.

Results

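The circles described here are exonic circRNAs of the PANC-1 cell line and of its resistant derivative PANC-1-GR that the deposited table credits to 2 earlier collections of human circRNAs, named there Zhang2014 and Guojunjie2014. Members were chosen from the labels and coordinates of each row and not from its reads: the row had to be exonic, to carry one of these source names, to have a predicted spliced length that differed from its genomic span, and to span at most 40000 bp. Of the 7746 listed junctions 418 met the rule, 265 from Zhang2014 with 250 host genes and 153 from Guojunjie2014 with 143 host genes. None of them has a circBase ID. The length condition leaves out circles predicted from 1 uninterrupted stretch, so by the rule no member can match a single annotated exon. At the span limit the largest Zhang2014 circle inside came from MELK (38573 bp) and the smallest outside from VRK2 (40897 bp), and for Guojunjie2014 these were CAB39 (38939 bp) and USP3 (45390 bp).

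PANC-1 is an established human line derived from a pancreatic ductal carcinoma, called the parental line below, and PANC-1-GR is called the resistant line. It was derived from the parental cells by selection in Gemcitabine, a nucleoside analogue used against pancreatic cancer, which was raised from 0.1 to 200 µg/ml over 40 weeks, and the derived cells were later given 10 µg/ml from time to time. Total RNA of both lines was sequenced in 3 libraries each, all from this 1 cell line and its 1 derivative, and no source used here says whether the libraries came from separate cultures, so p-values cover only the spread between libraries, which may be technical. The libraries held 9222 to 13689 back-splice junction reads, and the members together held 2762 of all 66978 (4.12%). Of 10 genes in an epithelial and duct list that also held CDH2 and VIM, only KRT19 had a listed junction, with at most 2 reads in a library. None of the marker genes of fibroblasts, blood cells, endothelium or acinar and endocrine pancreas had one, so these junctions say little about the labelled cell type.

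A circRNA forms when the spliceosome joins the end of an exon to the start of the same exon or of one upstream of it, which closes the RNA into a ring without free ends. Long introns beside the exons, which often hold inverted repeats that pair with each other, are known to favour this back splice, and exon 2 of a gene is a common start. Most such rings lie in the cytoplasm and are stable. Catalogues of circRNAs were built by different groups from different cells, and circBase is the one most often used for names.

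The sequence over a back-splice junction is not part of the linear mRNA as annotated and marks which exon ends were joined. It does not show the exons between them, which are predicted. It is printed for the 6 most read circles of each source among those wholly in annotated coding sequence whose junction was read here, and for 3 circles of 1 gene that show shared ends. Each line holds the last 25 bases of the last exon in lower case and the first 25 bases of the first exon in capitals, 5′ to 3′ on the transcript strand, from the GENCODE 29 transcript whose exons matched the circle in gene, strand, span and spliced length. Coordinates are hg19, as in the deposited table.
PLOD2, Zhang2014, chr3:145838899-145842016, minus strand, exons 2 to 3: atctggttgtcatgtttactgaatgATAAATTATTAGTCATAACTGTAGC
SDK1, Zhang2014, chr7:3658712-3681737, plus strand, exons 2 to 4: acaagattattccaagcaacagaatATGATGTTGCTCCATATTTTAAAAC
SLAIN2, Zhang2014, chr4:48371866-48385801, plus strand, exons 2 to 6: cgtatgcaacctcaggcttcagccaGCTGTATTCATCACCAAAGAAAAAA
DPY19L1, Zhang2014, chr7:35006506-35013217, minus strand, exons 8 to 10: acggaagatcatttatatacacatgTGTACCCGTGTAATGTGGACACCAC
TOP1, Zhang2014, chr20:39721112-39729993, plus strand, exons 9 to 13: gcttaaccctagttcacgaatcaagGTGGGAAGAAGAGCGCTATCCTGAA
CBL, Zhang2014, chr11:119155679-119156276, plus strand, exons 10 to 11: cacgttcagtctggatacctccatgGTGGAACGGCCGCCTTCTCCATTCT
PRDM2, Guojunjie2014, chr1:14099573-14109326, plus strand, exons 7 to 8: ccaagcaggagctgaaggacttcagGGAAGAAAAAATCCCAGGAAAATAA
FOSL1, Guojunjie2014, chr11:65661485-65664477, minus strand, exons 2 to 3: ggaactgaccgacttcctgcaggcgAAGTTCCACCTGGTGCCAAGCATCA
ATRNL1, Guojunjie2014, chr10:117221451-117228839, plus strand, exons 22 to 24: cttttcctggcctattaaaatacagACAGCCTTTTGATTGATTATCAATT
EXOC6B, Guojunjie2014, chr2:72692289-72707879, minus strand, exons 17 to 18: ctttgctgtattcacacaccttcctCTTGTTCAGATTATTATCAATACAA
SLC35F2, Guojunjie2014, chr11:107673727-107686691, minus strand, exons 2 to 7: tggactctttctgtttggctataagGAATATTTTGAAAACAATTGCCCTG
PNN, Guojunjie2014, chr14:39648295-39648666, plus strand, exons 7 to 8: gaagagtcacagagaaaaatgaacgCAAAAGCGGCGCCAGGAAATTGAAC
GMPS, Zhang2014, chr3:155611307-155629068, plus strand, exons 2 to 7: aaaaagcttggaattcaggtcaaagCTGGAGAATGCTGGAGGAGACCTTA
GMPS, Zhang2014, chr3:155623949-155629068, plus strand, exons 5 to 7: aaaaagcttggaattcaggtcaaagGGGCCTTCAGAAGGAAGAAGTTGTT
GMPS, Zhang2014, chr3:155611307-155615830, plus strand, exons 2 to 3: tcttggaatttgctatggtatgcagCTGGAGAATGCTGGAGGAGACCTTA
The 3 circles of GMPS, which encodes GMP synthetase, show how members share ends: the first has its lower-case bases in common with the second and its capitals with the third. It had 13 junction reads, the second had 6 and the third had 2.

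A last exon that ends in AG joined to a first exon that starts with G was more common among Guojunjie2014 circles than among the others. Of the sequences above those of PRDM2 and SLC35F2 in Guojunjie2014, and of TOP1 and the second GMPS circle in Zhang2014, have this feature, and the others lack it. Of the 140 Guojunjie2014 circles with a transcript match 69 (49.3%, 95% exact binomial interval 40.7 to 57.9%) had both letters, read on the transcript strand. The share was 54 of 243 (22.2%, interval 17.2 to 28.0%) in Zhang2014, 25.3% of 3556 circBase circles of the same category, span and length rule, and 23.1% of 1279 such circles with no source. The Guojunjie2014 interval therefore lay above the other 3 values, and no test was run, since the feature was chosen after the junction sequences were seen and circles of 1 gene share exons. Both letters were more frequent than in Zhang2014: the last exon ended in AG in 72.9% of the Guojunjie2014 circles against 52.7% in Zhang2014, and the first exon started with G in 63.6% against 44.4%. Of the 39822 internal exons of all matched transcripts 57.4% ended in AG and 46.8% started with G.

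The Guojunjie2014 share was also the higher one among well read circles and among wholly coding ones. Among circles with at least 5 reads the share with both letters was 24 of 57 (42.1%, interval 29.1 to 55.9%) in Guojunjie2014. In Zhang2014 it was 22 of 99 (22.2%, interval 14.5 to 31.7%), so the intervals overlapped there. Among those with 2 to 4 reads it was 54.2% of 83 and 22.2% of 144. Among circles lying wholly in coding sequence it was 52.2% of 113 and 22.9% of 192. The 69 Guojunjie2014 circles with both letters had a median of 3 reads and a median span of 5522 bp, and the other 71 had 4 reads and 9523 bp. A shifted copy of a member, meaning another listed junction with both ends within 10 bases of its ends, was found for 1 Guojunjie2014 circle and for no Zhang2014 circle.

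**Figure D1:**
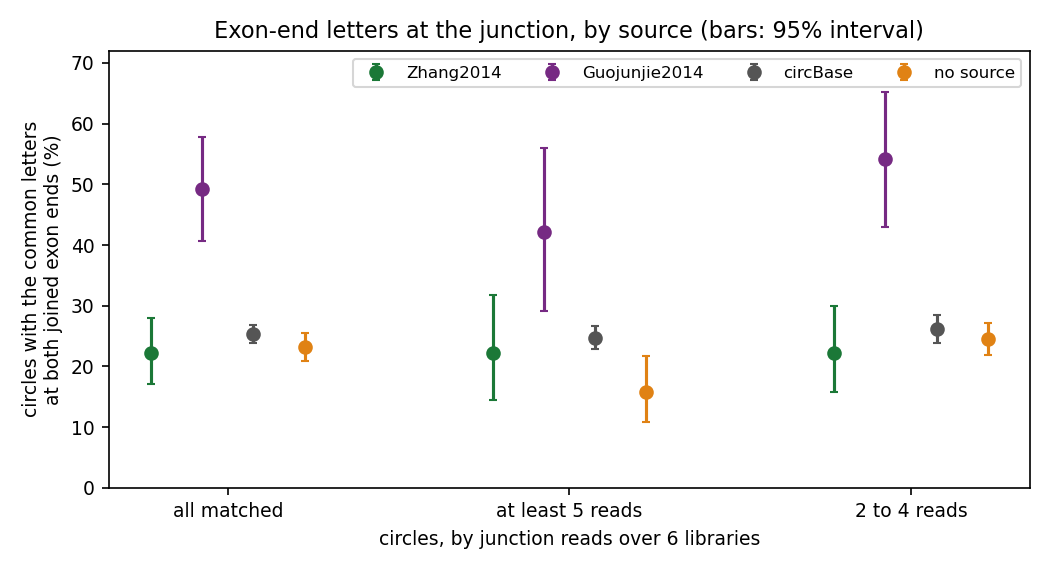
Share of circles, in percent, whose last exon ends in AG and whose first exon starts with G (the common letters of the axis), for each source, with 95% exact binomial intervals as bars, for all matched circles and split by junction reads. The Guojunjie2014 points lie at 49.3, 42.1 and 54.2%, and every Zhang2014 point lies at 22.2%.

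In exon structure both sources were otherwise close to the circBase circles. A transcript match was found for 91.7% of Zhang2014 and 91.5% of Guojunjie2014 circles. Circles of 2 exons made up 75 of 243 (30.9%) in Zhang2014 and 41 of 140 (29.3%) in Guojunjie2014, against 31.1% in circBase and 19.5% of the circles with no source. Circles of 5 exons or more made up 26.3, 29.3, 27.4 and 43.6% in the same order. The first exon of the circle was exon 2 of its transcript in 82 Zhang2014 (33.7%) and 46 Guojunjie2014 circles (32.9%), against 32.6% in circBase, and no member ended at the last exon of its transcript. One Guojunjie2014 circle, from the protocadherin gene PCDH7, began at exon 1, but of a transcript without coding sequence. The predicted lengths had medians of 395 and 448 bases in the 2 sources, and 34.0 and 37.9% of them were multiples of 3.

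The introns beside the members were longer at the median than those inside them. The intron upstream of the circle had a median length of 7396 bp in Zhang2014 and 7360 bp in Guojunjie2014, and the one downstream 6072 and 8255 bp. The introns inside the circles had medians of 2060 and 2232 bp, but the span limit of the rule caps these and not the flanking ones. Both flanking introns were longer than every intron inside in 122 of 243 Zhang2014 circles (50.2%) and 71 of 139 Guojunjie2014 circles (51.1%), against 53.2% in circBase and 32.7% of the circles with no source, all under the same span limit. The SDK1 circle stood between introns of 317195 and 179344 bp, while the PNN circle, which spans only 372 bp, stood between introns of 1174 and 1040 bp.

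By their mean level members were read less often than circBase circles and more often than circles with no source. The median circle had 4 reads over the 6 libraries in both sources, 5 in circBase and 2 with no source. The mean level of a Zhang2014 circle, as junction reads in 10000 of its library, was 1.03 ± 0.068 (SD, n = 6 libraries), that of a Guojunjie2014 circle 0.900 ± 0.099, that of a circBase circle 1.61 ± 0.021 and that of a circle with no source 0.525 ± 0.034. Zhang2014 circles stood at 0.637 times the circBase level and 1.96 times the no-source level, and Guojunjie2014 circles at 0.559 and 1.72 times, each difference having the same sign in 6 of 6 libraries. The two-sided exact sign flip test over the 6 libraries gave p = 0.03125 for each, which is the smallest it can give and also the value adjusted over the 5 source pairs. The libraries are repeat measurements of the same circles, so the test covers the spread between libraries and not the choice of circles.

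Zhang2014 stood 1.14 times above Guojunjie2014 in the same test, also with exact p = 0.03125 and in 6 of 6 libraries, but this difference rested on a few circles. Without the 3 circles with most reads of each source it was 0.0430 reads per circle and 10000, with the same sign in 4 of 6 libraries (exact p = 0.1875). The 3 top circles held 16.0% of the Zhang2014 reads and 10.0% of the Guojunjie2014 reads, and the median circle had 4 reads over the 6 libraries in both sources.

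**Figure D2:**
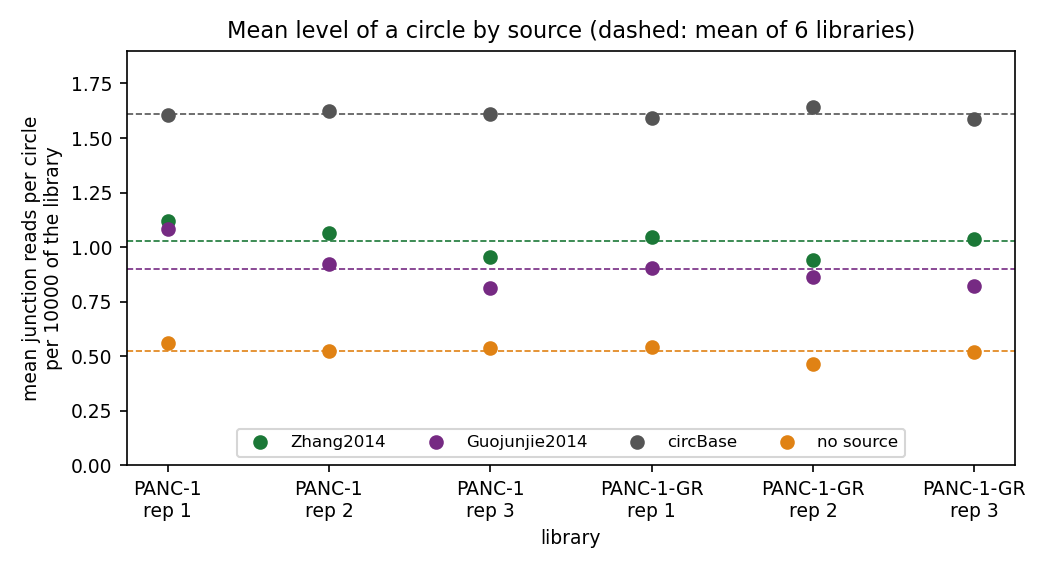
Mean junction reads per circle and 10000 junction reads, for each source in each of the 6 libraries, with the mean of the 6 libraries as a dashed line. In every library the circBase point (mean 1.61) is highest, followed by Zhang2014 (1.03), Guojunjie2014 (0.900) and circles with no source (0.525).

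Most members were rare and were not seen in every library. Of the Zhang2014 circles 156 (58.9%) had 2 to 4 reads in all 6 libraries together, as had 91 Guojunjie2014 circles (59.5%), against 41.3% of the circBase circles and 84.7% of those with no source. At least 10 reads were reached by 38 Zhang2014 (14.3%) and 24 Guojunjie2014 circles (15.7%), against 27.6% in circBase. A read in all 6 libraries was found for 20 (7.55%) and 18 circles (11.8%), and in only 1 library for 84 (31.7%) and 41 (26.8%). A junction is listed once any library gives it 2 reads or more, so shares at the low end depend on that threshold.

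**Figure D3:**
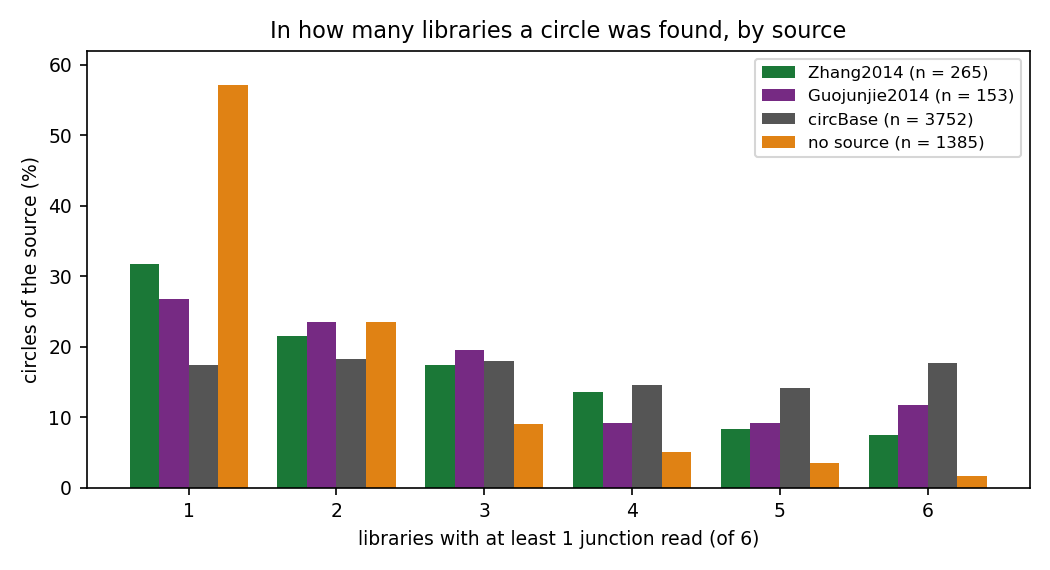
Share of the circles of each source, in percent, by the number of libraries with at least 1 junction read. Zhang2014 falls from 31.7% in 1 library to 7.55% in all 6, and Guojunjie2014 from 26.8 to 11.8%.

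Between the cell lines the members as a group differed by less than the spread (SD) of the parental libraries. Zhang2014 circles summed to 277 ± 22.5 reads per 10000 in the parental line and 267 ± 15.2 in the resistant line (SD, n = 3 each, two-sided exact permutation p = 0.5), and Guojunjie2014 circles to 143 ± 20.8 and 132 ± 6.13 (exact p = 0.5). A parental library showed a read for 119 ± 12.2 of the 265 Zhang2014 circles and a resistant library for 118 ± 21.0 (exact p = 1). For the 153 Guojunjie2014 circles these were 70.7 ± 17.6 and 75.0 ± 11.5 (exact p = 0.8). With 3 libraries a line the test cannot give a p below 0.1, and all 6 comparisons of this kind had an adjusted p of 0.96 or 1, so a difference of the size of this spread was not detectable. The difference of the sums, -10.0 in Zhang2014 and -11.4 in Guojunjie2014, shrank to -0.11 and -0.41 without PANC-1 replicate 1 and grew to -22.3 and -21.1 without PANC-1 replicate 3, and in Zhang2014 it was -1.22 without PANC-1-GR replicate 2.

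Circles found in only 1 line were few in reads. In Zhang2014 62 circles (23.4%) had reads only in the parental line and 51 (19.2%) only in the resistant line, with 8 reads at most. In Guojunjie2014 28 (18.3%) and 27 (17.6%) did, with 4 reads at most. Of the circBase circles 13.7 and 12.8% did, and of the circles with no source 34.6 and 33.8%. The circle of INSIG1, which encodes an endoplasmic reticulum protein that restrains cholesterol synthesis, had 2, 4 and 2 reads in the parental line and 0 in the 3 resistant libraries. Against a floor of 3 reads over the line, which is 0.888 per 10000, it was at least 2.72-fold lower in the resistant line, leaving out the counting error of the parental line. Circles of DCAF17, a substrate receptor of a ubiquitin ligase (2, 2 and 1 reads), and of the spectraplakin gene MACF1 (0, 1 and 4 reads) followed with 0 reads in the resistant line. These 3 were chosen after their values were seen, and too few reads kept them out of the test below.

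Most members were not the only listed junction of their host gene. Of the Zhang2014 circles 71 (26.8%) were the only listed junction of their host gene, 66 were the most read of several and 128 (48.3%) were not, and for 96 of those the most read junction had a circBase ID. For Guojunjie2014 these numbers were 43 (28.1%), 36, 74 (48.4%) and 56. Of the circBase circles 20.4% were the only listed junction, and of those with no source 24.8%. Another junction of the host had more reads for 48.9 and 58.4% of them. The members held 28.4 ± 3.10% of the junction reads of their host genes in the parental line and 27.6 ± 1.69% in the resistant line for Zhang2014 (exact p = 0.8), and 24.4 ± 1.64% and 23.5 ± 1.30% for Guojunjie2014 (exact p = 0.5). Exon ends were reused: 79 Zhang2014 (29.8%) and 41 Guojunjie2014 circles (26.8%) shared their acceptor, the start of the circle, with another listed junction. The share was 40.1% in circBase and 27.6% of the circles with no source, so the members were close to the latter. A shared donor, the end of the circle, was less common, at 20.4 and 19.0% against 29.9% in circBase and 20.6% with no source.

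The 2 sources met in 10 host genes. DDX26B on chromosome X had a Zhang2014 circle with 21 reads and a Guojunjie2014 circle with 3 that begin at the same acceptor. NAPEPLD, the phospholipase that makes N-acylethanolamines, had 2 Guojunjie2014 circles which start at the same acceptor on the minus strand, at 102769239 of chromosome 7. The longer one had 3, 3 and 3 reads in the parental line and 6, 2 and 1 in the resistant line, and the shorter one 2, 4 and 1 against 1, 3 and 3, so the lines overlapped for both. The 2 Zhang2014 circles of SULT1A3, a sulfotransferase gene with near-identical copies on chromosome 16, had the same length of 376 bases and equal reads in 5 of 6 libraries, and are uncertain, since a read cannot be assigned to a copy.

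The most read members were the Zhang2014 circles of GUSBP1 and PLOD2. PLOD2 encodes a lysyl hydroxylase that prepares collagen for cross-links, and its circle of exons 2 to 3 of 19 had 19, 14 and 12 reads in the parental line and 24, 21 and 27 in the resistant line. Its level was 13.5 ± 2.11 per 10000 in the parental line and 21.7 ± 3.75 in the resistant line, and the lines did not overlap. The log2 fold change was 0.64 ± 0.32 (SE, unadjusted p = 0.0419, adjusted p = 0.930, edgeR quasi-likelihood test), under the 2-fold threshold for a call. The other 4 listed junctions of PLOD2 had 8 reads in the parental line and 20 in the resistant line together, led by hsa_circ_0067682, which uses the same acceptor, with 6 and 14.

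GUSBP1 is a pseudogene of the beta-glucuronidase gene GUSB with near-identical copies, so its reads are uncertain in origin. Its circle had 13, 23 and 9 reads in the parental line and 30, 23 and 22 in the resistant line, a level of 13.3 ± 5.42 against 22.4 ± 2.40 per 10000. PANC-1 replicate 2 stood near the resistant libraries, and as levels the lines did not overlap. The log2 fold change was 0.70 ± 0.31 (SE, unadjusted p = 0.0259, adjusted p = 0.930 in edgeR), and without PANC-1 replicate 2 it was 1.10 and passed the threshold for a call.

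The other Zhang2014 circles among the 8 with most reads overlapped between the lines. The SDK1 circle, from a cell adhesion gene of the immunoglobulin superfamily, had 11, 8 and 11 reads in the parental line and 13, 7 and 6 in the resistant line. That of SLAIN2, which promotes microtubule growth, had 8, 9 and 1 against 8, 7 and 10, where PANC-1 replicate 3 was low. For SLC33A1, the acetyl-CoA transporter of the endoplasmic reticulum, the reads were 12, 9 and 6 against 9, 4 and 3, a log2 fold change of -0.79 ± 0.50 (SE, unadjusted p = 0.114 in edgeR) that became -1.23 and passed without PANC-1-GR replicate 1. The SDK1, SLAIN2 and SLC33A1 circles all start at exon 2 of their transcripts.

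The circle of NCOA2, a coactivator of nuclear receptors, had 9, 6 and 8 reads in the parental line and 7, 4 and 6 in the resistant line. DPY19L1, a C-mannosyltransferase gene, had 2 Zhang2014 circles from different exons: that of exons 8 to 10 had 4, 6 and 8 reads against 5, 5 and 10, and that of exons 2 to 6 had 8, 5 and 0 against 5, 3 and 2. TOP1 encodes DNA topoisomerase I, and its circle of exons 9 to 13, with no other listed junction in the gene, had 8, 6 and 2 reads against 7, 5 and 3. None of these 4 circles separated the lines.

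Among Guojunjie2014 circles that of PRDM2, a histone methyltransferase gene of the PR domain family, had the most reads, 6, 7 and 5 in the parental line and 7, 4 and 7 in the resistant line. It was also the longest member, with 4525 bases in exons 7 to 8. The level was 5.42 ± 0.473 per 10000 in the parental line and 5.29 ± 1.06 in the resistant line, the ratio of reads was 0.982 (95% exact interval 0.482 to 2.00, counting error only), and 6 other junctions of the gene had 21 and 24 reads. ANKIB1, a gene of a ubiquitin ligase with ankyrin repeats, gave 8, 9 and 2 reads against 6, 4 and 2. The same acceptor carries 5 of the other 6 listed junctions of that gene, led by a circle with no source that had 72 reads in the parental line and 74 in the resistant line.

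The MAML3 circle, from a Notch coactivator gene, had 4 reads in each parental library and 10, 3 and 1 in the resistant line, so that the resistant line was the more scattered. It spans 1611 bp with a predicted length of 1599 bases and matched no annotated run of exons. For FOSL1, a subunit of the AP-1 transcription factor, the reads were 1, 4 and 6 against 4, 2 and 6. The circle of ATRNL1, an attractin-like gene, had 1, 10 and 3 against 3, 5 and 0, and that of PNN, a nuclear protein tied to splicing and desmosomes, 4, 2 and 3 against 4, 2 and 4. For these 4 the lines overlapped. EXOC6B, a subunit of the exocyst, gave 6, 4 and 3 reads against 4, 2 and 2, and as levels per 10000, 3.86 ± 1.003 and 2.31 ± 0.556, the lines did not overlap. Its log2 fold change was -0.72 ± 0.71 (SE, unadjusted p = 0.315 in edgeR).

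**Figure D4:**
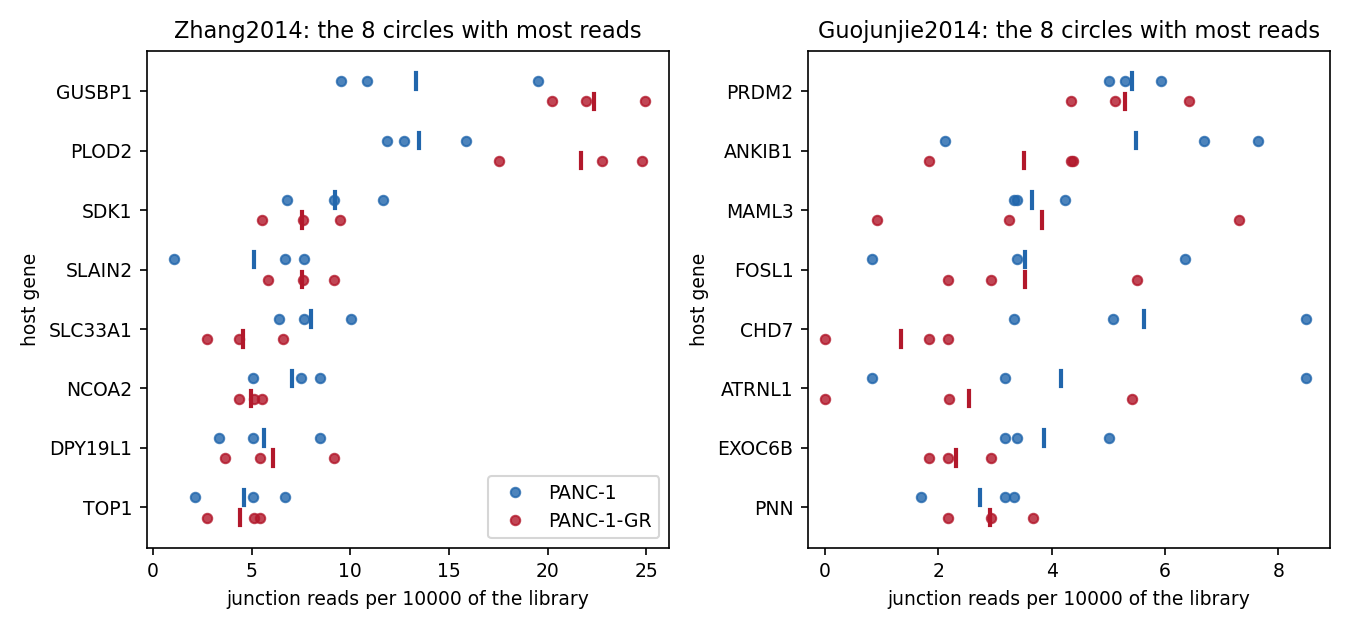
Junction reads per 10000 of the library for the 8 circles with most reads of each source, by host gene, with 1 point a library and a vertical bar at the mean of the 3 libraries of a line. PLOD2 and GUSBP1 lie higher in PANC-1-GR (21.7 and 22.4) than in PANC-1 (13.5 and 13.3), and CHD7 and EXOC6B lie lower, while the lines overlap for most of the others.

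To compare the lines circle by circle, the counts of all 969 junctions with at least 3 reads in at least 3 libraries were tested, and only 39 members (9.33%) were among them, 21 from Zhang2014 and 18 from Guojunjie2014. Of the circBase circles of the same rule 17.6% were tested. Calls required a change of 2-fold or more with an unadjusted p no higher than 0.05. One member was called higher in the resistant line, against a background of 2.79% of all 969, and 1 was called lower, against 1.44%. No member and no other circle had an adjusted p under 0.05 in edgeR or in DESeq2, and 4 members and 49 of the 969 had an unadjusted p under 0.05 in edgeR, 1 and 14 in DESeq2.

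The called-lower circle was that of CHD7, a chromatin remodeller that moves nucleosomes at enhancers. It is a Guojunjie2014 circle of exons 4 to 6 of 38 on chromosome 8 and had 4, 6 and 8 reads in the parental line and 0, 2 and 2 in the resistant line. All 3 parental libraries lay above all 3 resistant libraries, at 5.64 ± 2.61 against 1.34 ± 1.17 per 10000. The log2 fold change was -2.11 ± 0.76 (SE, unadjusted p = 0.00582, adjusted p = 0.930 in edgeR). Without PANC-1-GR replicate 1, which had 0 reads, it was -1.44 (unadjusted p = 0.0724) and the call was lost. The other 3 listed junctions of CHD7 had 13 reads in the parental line and 4 in the resistant line.

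The called-higher circle was that of TAF2, a subunit of the general transcription factor TFIID. This Zhang2014 circle of exons 7 to 14 of 26, also on chromosome 8, had 1, 1 and 2 reads in the parental line and 3, 3 and 8 in the resistant line. The lines did not overlap by a narrow margin, and PANC-1-GR replicate 3 held 8 of the 14 reads of the resistant line. The log2 fold change was 1.68 ± 0.83 (SE, unadjusted p = 0.0421, adjusted p = 0.930 in edgeR), and without that library it was 1.03 (unadjusted p = 0.374). The call was also lost without PANC-1 replicate 1 or 2, where the values were 1.48 and 1.49. The other 6 listed junctions of TAF2 had 15 reads in the parental line and 10 in the resistant line.

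By separation of the lines alone 3 tested members lay higher in every resistant library, GUSBP1, PLOD2 and TAF2, against 6.71% of all tested circles, and 4 lay lower, CHD7, EXOC6B, CA8 and ZFAND4, against 4.13%. The circle of CA8, a carbonic anhydrase-related gene, had 6, 10 and 4 reads in the parental line and 5, 2 and 3 in the resistant line, and that of ZFAND4, a zinc finger gene, 3 in each parental library and 1, 2 and 1. Over the 39 members 11 log2 fold changes were positive and 28 negative with a median of -0.23, and over all 969 circles 450 were positive and 519 negative with a median of -0.04.

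**Figure D5:**
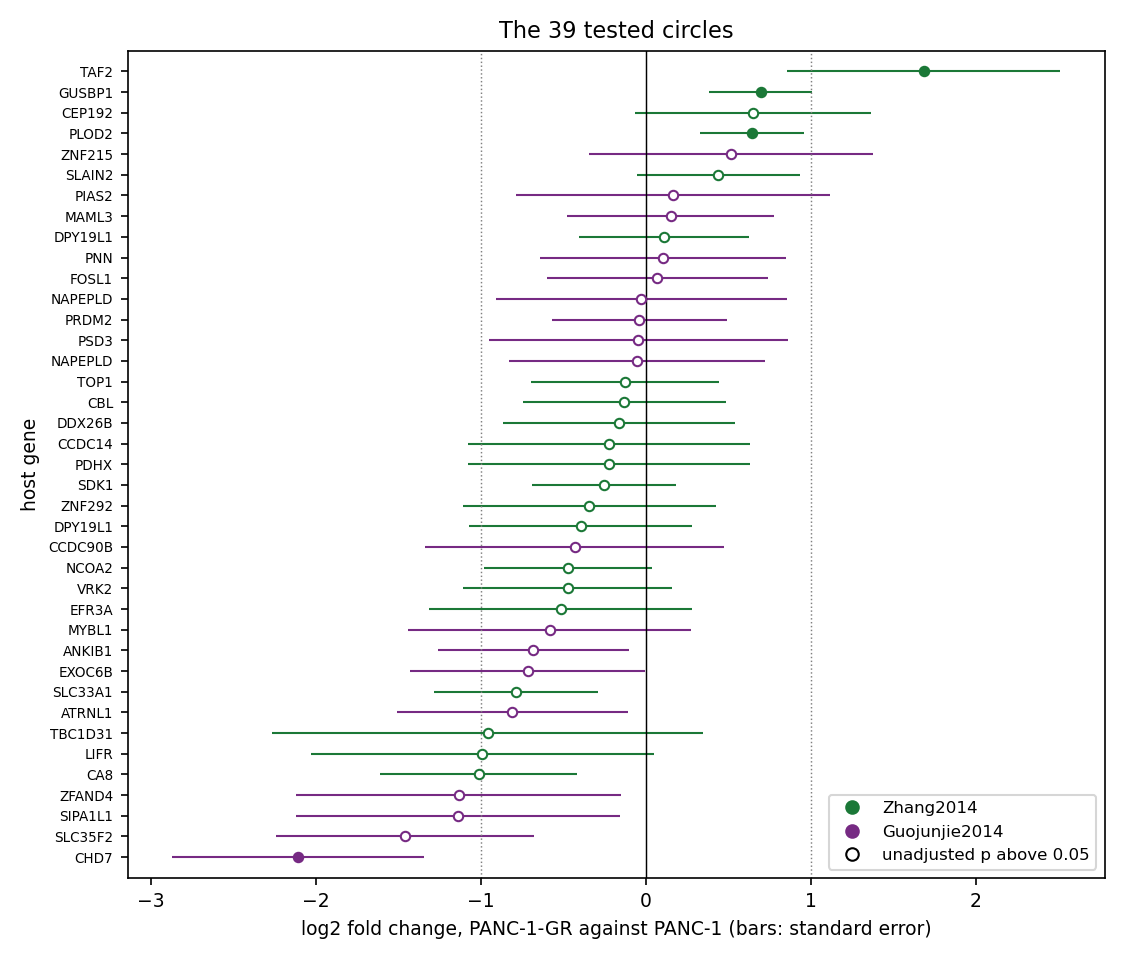
log2 fold change of PANC-1-GR against PANC-1 for the 39 tested members, sorted, with the standard error as a bar and filled points at an unadjusted p of at most 0.05. The 4 filled points are CHD7 at -2.11 and PLOD2, GUSBP1 and TAF2 at 0.64, 0.70 and 1.68, and dotted lines mark a 2-fold change.

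Host genes were grouped in 9 lists, and most of their circles had too few reads to be tested. Chromatin and histone regulators gave 9 members with 34 reads in the parental line and 24 in the resistant line. CHD7 held 18 and 4 of these reads, was the only one tested and was called lower. The median member of the list had 4 reads, as over both sources. The KMT2E circle, from a gene of the histone methyltransferase family, had 2, 0 and 1 reads against 3, 1 and 1. Ubiquitin ligases and deubiquitinases gave 15 members with 39 and 37 reads, 13 of them from Zhang2014, and 1 was tested and not called. That was the circle of CBL, the ligase that marks activated receptor tyrosine kinases, with 4, 5 and 5 reads against 2, 5 and 6. The circle of MIB1, a ligase of Notch ligands, had 2, 1 and 2 against 0, 2 and 2, next to 6 other junctions of the gene with 89 and 110 reads.

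Cell cycle, centrosome and mitosis genes gave 10 members with 40 reads in each line, and the 1 tested was not called. It was the circle of CEP192, a scaffold of the centrosome, with 7, 0 and 1 reads in the parental line and 3, 1 and 9 in the resistant line, where both lines were scattered. Its log2 fold change of 0.65 ± 0.71 (SE, unadjusted p = 0.363 in edgeR) became 2.76 and passed without PANC-1 replicate 1, and fell to -0.46 without PANC-1-GR replicate 3. The CEP128 circle, from another centrosome gene, had 1, 2 and 6 reads against 2, 1 and 1. Microtubule and motor proteins gave 7 members with 29 and 14 reads, none tested. SPAST, which severs microtubules, had 3, 2 and 4 reads against 2, 1 and 0, and the filopodial motor MYO10 had 4, 0 and 1 against 1, 1 and 2.

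RNA processing genes gave 5 members with 7 reads in each line, all from Zhang2014 and none tested. DHX34, a helicase of nonsense-mediated decay, had 2, 0 and 0 reads against 0, 2 and 1, and the spliceosomal helicase DDX46 had 0, 2 and 1 against none. DNA damage response and repair gave 5 members with 13 and 7 reads, none tested. The circle of the mismatch repair gene PMS1 had 0, 3 and 0 reads against 2, 2 and 0, and that of BRIP1, a helicase that binds BRCA1, had 0, 3 and 0 against 1, 0 and 0.

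Endocytosis and membrane trafficking gave 4 members with 19 and 15 reads, and EXOC6B was the 1 tested. The SCAMP1 circle, from a secretory carrier membrane protein gene, had 0, 3 and 0 reads against 1, 1 and 3. RAS, MAPK and PI3K signalling and kinases gave 12 members with 18 and 23 reads, none tested. RAPGEF2, an exchange factor of RAP GTPases, had 4, 0 and 0 against 0, 1 and 1, and the kinase PAK1 had 1, 0 and 2 against 2, 0 and 0. Cell adhesion and matrix gave 3 members with 48 and 75 reads, of which PLOD2 held 45 and 72, was the 1 tested and was not called. The PCDH7 circle had 1, 0 and 0 reads against 3, 0 and 0.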

How the data were processed

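Circular RNA was measured in 6 libraries, 3 of PANC-1 and 3 of PANC-1-GR, grouped by the sample titles. The deposited values used here are raw counts, the number of reads across each back-splice junction in each library, given with hg19 coordinates, category, source and predicted length. The log2 CPM columns of the authors were not used. CASAVA 1.8, BWA and hg19 appear in the submitters' processing notes without their roles. For the junction caller the sources used here give no name, and the extraction protocol in the labels speaks of tissue and plasma, although the samples are cell lines. Each library holds RNA of many cells together, so fewer cells with a circle and fewer copies per cell cannot be told apart. Linear mRNA was not analysed here, so a change of the circle and a change of its host gene cannot be told apart either.

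Levels are junction reads per 10000 listed junction reads of the library. Counts were fitted in edgeR 4.0.16 (R 4.3.3) and compared by its two-sided quasi-likelihood test, with TMM factors of 0.978 to 1.06, a prior count of 0.125 and no replicate block, over all 969 circles with at least 3 reads in at least 3 libraries, with Benjamini-Hochberg adjustment over all of them. The standard error is the log2 fold change divided by the square root of F. Sums and means were compared with exact permutation and sign flip tests (Python 3.11.15, scipy 1.17.1). Intervals are exact 95% intervals. Those of the exon-end letters are binomial over circles and take circles as independent. Those of a ratio of reads cover counting error only, since reads are not independent molecules. Exons were matched in GENCODE 29 by host gene, strand, span and spliced length, and no coordinate was carried between builds. Junction sequences were read for circles wholly in coding sequence, leaving out chromosomes 8 and Y. Counts of replicate libraries differed by somewhat more than Poisson noise (chi-square per degree of freedom 1.23 to 1.39), so no pair was merged as 1 library deposited again. Repeat libraries of 1 RNA could give such values too.

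Named were the 8 members with most reads of each source, the called members and the 2 with most reads of each list. The eighth place of Guojunjie2014 was tied between 2 circles at 19 reads. Members, lists and comparisons were chosen with earlier results of these data known, although the rule for members uses labels and coordinates and not reads. Alternatives were RLE factors, library totals alone, DESeq2 1.42.0, the exact test of edgeR, a filter of 10 reads in 3 libraries or none at all, a prior count of 2, a replicate block, a fold of 1.5, other denominators, other sets of members and each replicate left out in turn. The tests were tried on simulated data.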

Additional observations from a re-analysis of the deposited data

How the results depend on the processing

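Depth limits the comparison of the lines, since 379 of the 418 members had too few reads to be tested, and so do 3 libraries a line. Of the 2 called members RLE factors, library totals alone and the exact test of edgeR kept the number at 2, among 41, 41 and 38 calls over all 969 circles. DESeq2 called 1 member (CHD7) among 14 of all 969 circles, and a prior count of 2 called 1 (CHD7) among 21. A fold of 1.5 called 4 members (CHD7, TAF2, PLOD2 and GUSBP1) among 48 of the 969. No filter called 5 of the 418 members (CHD7, TAF2, DNAJC3, MACF1 and INSIG1) among 124 of all 7746 circles. At least 10 reads in 3 libraries called 0 of the 3 members left and 6 of all 148 circles left. Each replicate left out in turn gave 2 to 3 member calls, among 38 to 52 calls over all 969 circles. They were not always of the same members: CHD7 and TAF2 without PANC-1 replicate 3 or PANC-1-GR replicate 2, CHD7 and CEP192 without PANC-1 replicate 1, CHD7, SLC35F2 and GUSBP1 without PANC-1 replicate 2, CHD7 and SLC35F2 without PANC-1-GR replicate 3, and TAF2, SLC33A1 and LIFR without PANC-1-GR replicate 1. The study's text speaks of paired lines without saying what pairs them, the labels give no shared batch or day, and samples with the same number did not deviate together (correlations of 0.027, 0.013 and 0.014). A replicate block called 28 of the 969 circles in place of 41 and 1 member (CHD7), with TAF2 no longer called at 1.64, and left the summed levels at -10.0 (p = 0.75) and -11.4 (p = 0.5), exact sign flip tests that cannot go below 0.25.

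The sign of the difference in members with a read changed with the replicate left out, from -11.5 to 9.5 in Zhang2014 and from -4.0 to 13.5 in Guojunjie2014, and so did that of the share of host reads, from -1.88 to 0.977 and from -1.55 to 0.0203 percentage points. The difference of Zhang2014 and Guojunjie2014 was 0 as a difference of medians, 0.0430 without the top 3 circles of each, and 0.108 to 0.143 with a library left out. With a library left out the differences from circBase were -0.604 to -0.561 for Zhang2014 and -0.748 to -0.693 for Guojunjie2014, and those from circles with no source 0.491 to 0.519 and 0.347 to 0.396, all with exact p = 0.0625, the smallest that 5 libraries can give.

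Log2 fold changes of named circles that changed sign with a replicate left out were DPY19L1 (-0.33 to 0.45), TOP1 (-0.44 to 0.23), PRDM2 (-0.197 to 0.0653, and 0.0066 with no filter), MAML3 (-0.86 to 0.59), FOSL1 (-0.41 to 0.69), ATRNL1 (-1.72 to 0.31), PNN (-0.15 to 0.31), CBL (-0.45 to 0.33) and CEP192 (-0.46 to 2.76). None of these was called with all libraries. Where a value moved, the cause was not tested.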
